A study of Mus musculus with 20 samples.

Results

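10 genes that mark stratified squamous epithelium, the lining of the anal canal next to the colon, were followed in colon RNA-seq libraries. They were Krt1, Krt4, Krt5, Krt6a, Krt10, Krt13, Krt14, Krt15, Trp63 and Dsg3, that is 10 of the 32991 genes to which transcripts in the files could be assigned. They were chosen by name, with earlier results of these libraries known, to look for libraries that include squamous tissue of the anorectum. Their own levels are therefore given as a description, with no p-value. The FPKM of all annotated transcripts of a gene was summed in each mouse, FPKM being fragments scaled to transcript length and to the size of the library.

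The study used male C57BL/6 mice in 4 groups of 5, with 1 colon library per mouse. Control mice received double distilled water by gavage for 91 days, and PZH mice received Pien Tze Huang, a traditional Chinese medicine, at 250 mg/kg/d over the same time. Model mice received the water together with AOM/DSS, which was 1 intraperitoneal injection of the carcinogen azoxymethane (AOM, 12.5 mg/kg) followed by 4 cycles of 2% dextran sulfate sodium (DSS) in the drinking water for 5 days each. Model + PZH mice received AOM/DSS and PZH at the same doses. No transgene or second strain was involved, and the age of the mice was not given in the sources used here. The tissue was labelled colon in all 20 mice, although the extraction text of the labels speaks of the abdominal aorta, and how close to the anus the tissue was cut is not given in the sources used here. Mice are named here by their group and the mouse number in the labels, which is not shared between groups.

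The colon is lined by a single layer of columnar cells, whereas the anal canal is lined by a stratified squamous epithelium, and the transition between them is abrupt. Keratins form filaments only as pairs of a type I and a type II chain. In squamous epithelium Krt5 pairs with Krt14 in the dividing basal layer, and above it Krt1 pairs with Krt10 in cornifying epidermis, while Krt4 pairs with Krt13 in wet, non-cornified mucosa. Trp63 is the transcription factor that maintains basal cells, Dsg3 is a desmosomal cadherin of the lower layers, Krt15 is a further basal keratin, and Krt6a is a keratin of appendages and of wounded or thickened epithelium.

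Colonic columnar genes were high in every library. Vil1, of the microvilli, lay between 157 and 274 FPKM, and Krt19, a simple-epithelium keratin, between 950.1 and 2138 FPKM in the 20 mice. Krt8 spanned 0.0706 to 3071 FPKM and Epcam was listed at 0 in 13 mice. Fragments given to newly assembled transcripts, which hold 12.1% to 14.8% of the summed FPKM of a mouse, carry no gene name in the files. Their part in the low values was not tested, and a low or 0 value of a single gene is stated only as listed. Depth, read from the steps between low values, was 15.4 to 19.5 M fragments per mouse, and 3 fragments of Krt5 correspond to 0.0701 to 0.0887 FPKM.

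Promoters of members that moved together in Control mice 17 and 50 (below) but apart in the Model mice are shown first, because Krt5 and Krt10 stayed low in the Model mice while Krt13 did not. The 250 bases upstream of the start are from RefSeq (GRCm38.p6), 5′ to 3′ on the gene's strand, with matches to TATAAA (the TATA box), TGANTCA (a loose form of the AP-1 site) or CTTTGAT (the core bound by TCF/LEF factors) in capitals. Both strands were searched, and no matches overlapped. Krt5 lies on the minus strand at chr15:101712906-101713155, Krt10 on the minus strand at chr11:99389365-99389614 and Krt13 on the minus strand at chr11:100121567-100121816.
Krt5: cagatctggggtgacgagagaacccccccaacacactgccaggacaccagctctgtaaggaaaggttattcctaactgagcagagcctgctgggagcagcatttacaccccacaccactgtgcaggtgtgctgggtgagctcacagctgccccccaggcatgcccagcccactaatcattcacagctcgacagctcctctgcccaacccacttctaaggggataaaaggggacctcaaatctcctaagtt
Krt10: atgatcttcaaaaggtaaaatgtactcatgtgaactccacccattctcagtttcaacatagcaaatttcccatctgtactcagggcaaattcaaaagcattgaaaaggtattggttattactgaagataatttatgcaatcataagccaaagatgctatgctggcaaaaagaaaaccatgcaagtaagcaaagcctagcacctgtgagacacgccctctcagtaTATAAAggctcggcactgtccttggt
Krt13: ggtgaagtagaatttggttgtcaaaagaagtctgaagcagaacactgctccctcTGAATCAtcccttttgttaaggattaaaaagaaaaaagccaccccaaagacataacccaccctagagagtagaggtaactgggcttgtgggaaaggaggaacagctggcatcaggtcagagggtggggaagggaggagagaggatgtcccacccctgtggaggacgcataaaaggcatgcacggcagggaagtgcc
Krt10 held TATAAA 26 bases before the start, Krt13 held 1 match to TGANTCA 196 bases before the start, and Krt5 held none of the 3 motifs. Of 32851 promoters in the same table, 12.4% held TATAAA, 6.75% held TGANTCA and 3.21% held CTTTGAT in these 250 bases. A match describes letters only. Krt5, Krt6a, Krt1 and Krt4 lie together on chromosome 15, Krt10, Krt13, Krt14 and Krt15 on chromosome 11, and Trp63 on chromosome 16.

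Some members resemble other keratin genes so closely that reads cannot always be placed. Of the 50-base windows of the leading Krt6a transcript, 49.5% also occur in transcripts of other genes, above all Krt6b. The share was 14.4% for Krt14, shared with Krt16 and Krt17, 8.52% for Krt5, and 0.666% or less for each of the other 7 members. The coding sequences of Krt6a and Krt6b agree at 1608 of 1659 positions compared without gaps (96.9%). Their first 90 coding bases, shown because a read from here could come from either gene, differ at the 2 positions in capitals.
Krt6a: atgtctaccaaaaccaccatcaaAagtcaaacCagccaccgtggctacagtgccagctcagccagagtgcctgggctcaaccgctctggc
Krt6b: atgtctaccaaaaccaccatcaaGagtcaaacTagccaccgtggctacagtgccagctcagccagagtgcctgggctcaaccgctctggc
Krt6a values should be read together with those of Krt6b, which are given below.

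The basal genes Krt5 and Krt14 showed 2 Control mice apart from all others. Krt5 was listed at 33.9 FPKM in Control mouse 17 and 20.9 FPKM in Control mouse 50, against 0, 0.0936 and 0.0779 FPKM in Control mice 37, 41 and 48. In the PZH mice it was 0.138, 0.028, 0.028, 0.0267 and 0.0371 FPKM in mice 8, 14, 27, 46 and 53, and in the Model mice 0.107, 0.525, 0.0474, 0.209 and 0.123 FPKM in mice 23, 30, 33, 44 and 52. The Model + PZH mice 2, 13, 15, 35 and 36 had 0.0808, 0.104, 0.0832, 3.21 and 0.0275 FPKM. The Krt5 values of the Model mice rest on 2 to 19.6 estimated fragments, and the groups overlapped in every comparison.

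Krt14, the partner of Krt5, had a different pattern. It stood at 61.0 and 45.5 FPKM in Control mice 17 and 50, and at 1.27, 0.474 and 0.284 FPKM in Control mice 37, 41 and 48. PZH mice had 0.799, 0.326, 0.109, 0.164 and 0.351 FPKM. Model mice had 6.2, 22.2, 7.34, 19.1 and 22.5 FPKM, all above every PZH mouse and above Control mice 37, 41 and 48, and all below Control mice 17 and 50. Model + PZH mice had 1.39, 0.87, 4.29, 39.2 and 4.83 FPKM, so 4 of these 5 lay below every Model mouse and mouse 35 lay above every Model mouse.

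The ratio of Krt14 to Krt5, each in FPKM, was formed in the 11 mice with 3 or more estimated Krt5 fragments. It was 1.8 and 2.18 in Control mice 17 and 50, and 57.9, 42.3, 91.1 and 184 in Model mice 23, 30, 44 and 52. In Model + PZH mice 13, 15 and 35 it was 8.33, 51.6 and 12.2, so mouse 15 lay within the range of the Model mice. It was 5.06 in Control mouse 41 and 5.78 in PZH mouse 8. Only Control mice 17 and 50 and Model + PZH mouse 35 had over 100 Krt5 fragments (1221, 786 and 124). The ratios of the 4 Model mice rest on 4 to 19.6 Krt5 fragments, and those of the other 4 mice on 3 to 5, so their sizes are uncertain.

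**Figure D1:**
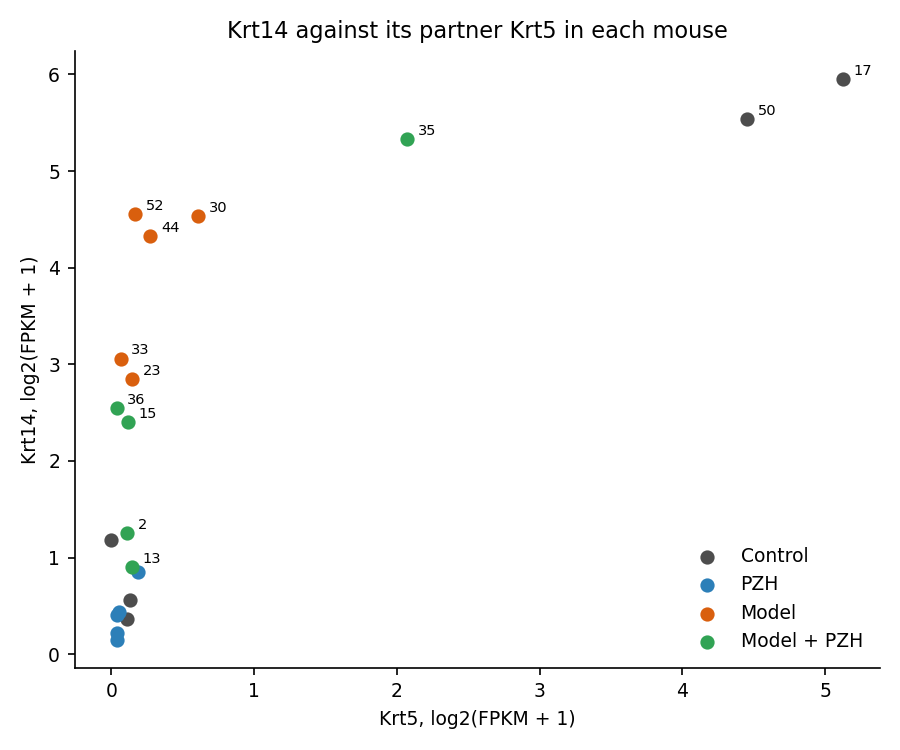
Krt14 against Krt5 in each of the 20 mice, both as log2(FPKM + 1), with 1 point per mouse coloured by group and AOM/DSS mice and 2 Control mice numbered. Control mice 17 and 50 are high on both axes, the 5 Model mice are high for Krt14 with Krt5 at 0.525 FPKM or less, and Model + PZH mouse 35 lies between them at 3.21 FPKM of Krt5.

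Krt15 followed Krt14 rather than Krt5. It was 9.18 and 7.23 FPKM in Control mice 17 and 50, 0.159 to 0.677 FPKM in the other 3 Control mice and 0.143 to 0.384 FPKM in the PZH mice. Model mice had 2.74, 4.49, 1.28, 8.1 and 10.3 FPKM, and Model + PZH mice had 0.626, 0.228, 0.814, 3.89 and 0.716 FPKM. Krt15 was the only member for which Control mice 17 and 50 were not both above the other 18 mice, since Model mice 44 and 52 lay above Control mouse 50.

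Trp63 (chr16:25683763-25892102, plus strand, mm10 coordinates from GENCODE M21) was near the limit of detection in most libraries. It was listed at 2.0 FPKM in Control mouse 17 and 0.92 FPKM in Control mouse 50, which is 131 and 74 estimated fragments, and at 0 in the other 3 Control mice. PZH mice had at most 0.0229 FPKM, and Model mice had 0.011, 0.0331, 0, 0 and 0 FPKM, at most 3 fragments. Model + PZH mouse 35 had 0.11 FPKM, 9 fragments, and the other 4 mice of its group at most 0.012 FPKM. Of 5 annotated Trp63 transcripts in the files, the 2 that start inside the gene at position 25801916, as the ΔN form, which lacks the first transactivation domain, does, held 1.94 of the 2.0 FPKM in Control mouse 17 and the whole value in Control mouse 50 and Model + PZH mouse 35. The 3 that start upstream were at 0.06 FPKM in Control mouse 17 and at 0 in the other 2.

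Dsg3 was listed at 3.27 and 1.64 FPKM in Control mice 17 and 50 and at 0.0152 FPKM or less in the other 3 Control mice. Model mice had 0.555, 0.615, 0.345, 1.48 and 1.04 FPKM, which is 41.3 to 155 fragments. PZH mouse 8 had 0.377 FPKM and overlapped the Model mice, whereas the other PZH mice had at most 0.0318 FPKM. Model + PZH mice had 0.0628, 0.0349, 0.152, 1.63 and 0.386 FPKM.

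The epidermal pair Krt1 and Krt10 was high in Control mice 17 and 50 only, among the 20 libraries. Krt1 was 74.6 and 28.2 FPKM there and 0, 0.0041 and 0.0199 FPKM in Control mice 37, 41 and 48. It stayed at 0.0273 FPKM or less in all PZH mice and 0.0188 FPKM or less in all Model mice, below the 0.0492 to 0.0622 FPKM that 3 fragments of Krt1 give. The highest of the remaining values was 0.103 FPKM in Model + PZH mouse 13, and mouse 35 was listed at 0.

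Krt10 was 103 and 56.8 FPKM in Control mice 17 and 50, and 0.529, 0.138 and 0.372 FPKM in Control mice 37, 41 and 48. The PZH mice ranged from 0.109 to 1.15 FPKM with a median of 0.744, the Model mice from 0.309 to 0.97 with a median of 0.684, and the Model + PZH mice from 0.0364 to 0.928 with a median of 0.698. These 3 ranges overlapped, and Model + PZH mouse 35 at 0.698 FPKM lay inside its group.

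The mucosal pair Krt4 and Krt13 was also highest in Control mice 17 and 50. Unlike Krt1 and Krt10, both genes were higher in every Model mouse than in every PZH mouse. Krt13 was 125 and 126 FPKM in Control mice 17 and 50, and 0.372, 0.256 and 0.527 FPKM in Control mice 37, 41 and 48. PZH mice had 0.11, 0.288, 0.241, 0.106 and 0.355 FPKM, and Model mice had 6.05, 11.5, 3.06, 7.48 and 6.72 FPKM with no overlap between these 2 groups. Model + PZH mice had 2.07, 1.42, 4.5, 12.4 and 1.43 FPKM, all above every PZH mouse and overlapping the Model mice.

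Krt4, the partner of Krt13, was 76.9 and 55.8 FPKM in Control mice 17 and 50 and listed at 0 in the other 3. PZH mice had at most 0.0288 FPKM, 1 fragment. Model mice had 1.81, 0.506, 0.927, 1.23 and 2.91 FPKM, and Model + PZH mice had 0.0303, 0.0807, 0.2, 2.88 and 0.616 FPKM. The ratio of Krt13 to Krt4 was 1.63 and 2.26 in Control mice 17 and 50, and 2.31 to 22.7 in the Model mice.

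Krt6a was 40.9 and 37.2 FPKM in Control mice 17 and 50 and listed at 0 in the other 3. Model mice had 0.414, 0.837, 1.34, 1.86 and 4.27 FPKM, and Model + PZH mice had 0, 0.0665, 0.244, 7.52 and 1.82 FPKM, so that mouse 35 lay above every Model mouse. PZH mice were listed at 0 except mouse 53 at 0.0275 FPKM. Krt6b, the near-identical copy, was 29.7 and 29.6 FPKM in Control mice 17 and 50, 0.119 to 0.311 FPKM in the Model mice and 4.83 FPKM in Model + PZH mouse 35.

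**Figure D2:**
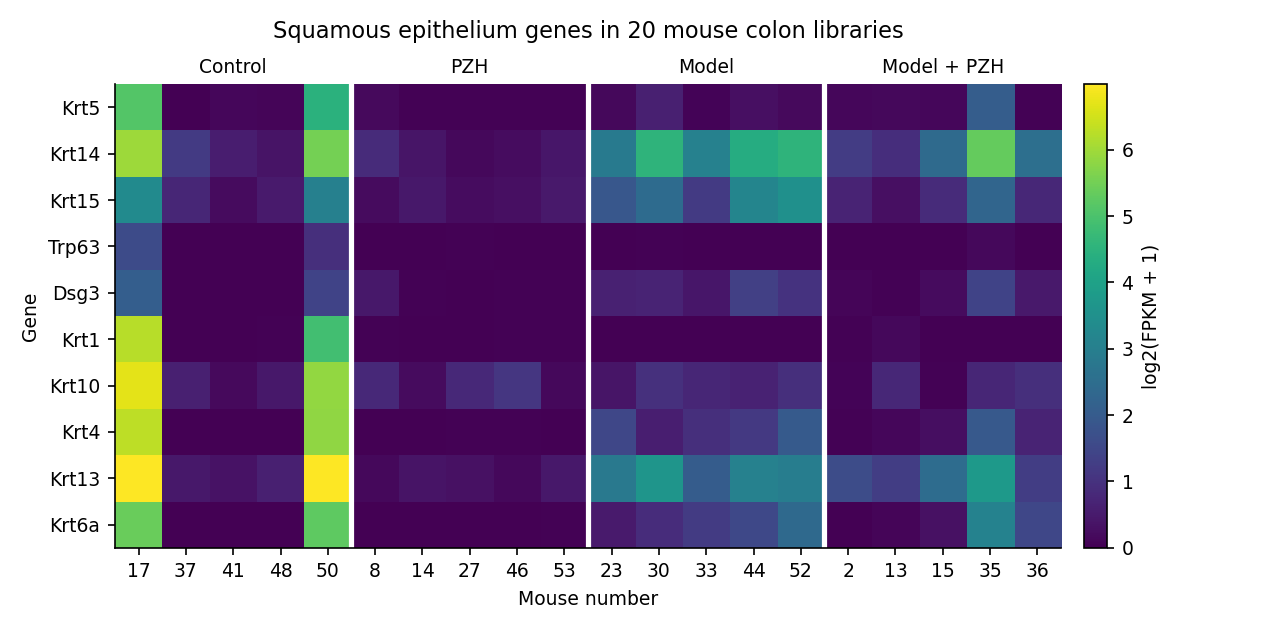
The 10 genes (rows, ordered as basal, epidermal, mucosal and wound genes) in the 20 mice (columns, by mouse number within group), coloured by log2(FPKM + 1). Control mice 17 and 50 are the brightest in every row except Krt15, though dim for Trp63 and Dsg3. The Model mice and Model + PZH mouse 35 are brighter than the PZH mice for Krt13, Krt14 and Krt15, and dark for Krt1.

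Put together, all 10 members were at 3 or more estimated fragments in Control mice 17 and 50, and 4 or 5 of them in Control mice 37, 41 and 48. The mean of log2(FPKM + 1) over the 10 members was 4.97 and 4.42 in Control mice 17 and 50, and 0.142 to 0.301 in the other Control mice. It was 0.15 to 0.267 in the PZH mice, 0.969 to 1.75 in the Model mice, and 0.393, 0.38, 0.667, 2.08 and 0.825 in the Model + PZH mice. By group medians of single members, Model was highest for Krt4, Krt5, Krt6a, Krt13, Krt14, Krt15 and Dsg3, but each of these 7 overlapped Control. Mice 17 and 50 alone made the overlap for 6 of them, and Krt5 overlapped the other 3 Control mice as well. All Model mice were above all Control mice for 0 of 10 members, beside 2058 of the 15812 genes tested. They were above Control mice 37, 41 and 48 for 6 of 10 members, beside 17.7% of the genes tested, and above all PZH mice for 5 of 10, beside 14.9%. The Model mice were above all Model + PZH mice for 0 of 10, beside 0.673%, and above the Model + PZH mice other than 35 for 2 of 10 (Krt14 and Krt15), beside 8.17%. The members were chosen on these groups, so nothing is read from these counts.

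**Figure D3:**
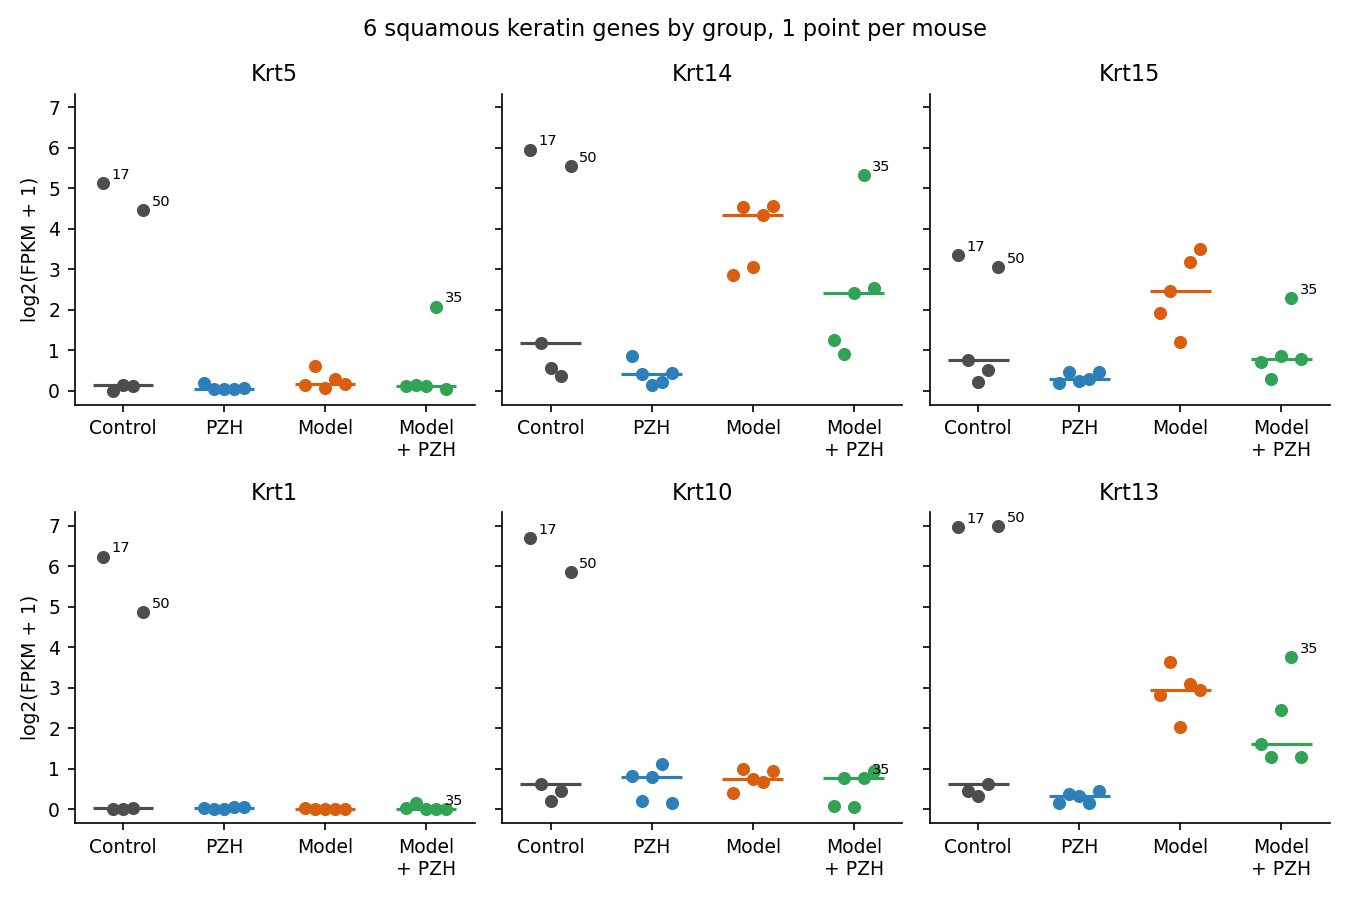
FPKM of 6 keratin genes as log2(FPKM + 1) by group, with 1 point per mouse and the line at the group median. In Control, mice 17 and 50 lie far above the other 3 for every gene, and the 5 Model mice lie above the 5 PZH mice for Krt13, Krt14 and Krt15 but not for Krt1 or Krt10.

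The 2 Control mice turned the direction of several group differences. Between the means of log2(FPKM + 1), Model minus Control was -0.17 for Krt13, -1.19 for Krt4 and -0.83 for Krt6a with all 5 Control mice, and 2.44, 1.23 and 1.3 with Control mice 17 and 50 left out. For Krt14 the difference was 1.15 with and 3.17 without them, and for Krt15 0.88 and 1.96. For Krt1 it was -2.22 with and -0.01 without them. PZH minus Control was negative for all 10 members, with a median of -2.14, and with the 2 mice left out 6 were positive and 4 negative with a median of 0.01. Model minus PZH, in which neither mouse takes part, was 3.45 for Krt14, 2.62 for Krt13, 2.12 for Krt15, 1.3 for Krt6a, 1.22 for Krt4 and 0.70 for Dsg3. It was 0.18 or less in size for Krt1, Krt5, Krt10 and Trp63. Model and PZH mice differ in both AOM/DSS and PZH, whose effects cannot be told apart in this difference.

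In the same way Model + PZH minus Model was -1.38 for Krt14, -1.46 for Krt15 and -0.83 for Krt13 with all mice, and -2.09, -1.79 and -1.25 without mouse 35. Krt5 was 0.24 with and -0.15 without that mouse. In bulk tissue a smaller share of squamous cells and less RNA per cell cannot be told apart.

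Other genes of squamous epithelium were taken from 4 lists grouped by role, with 87 genes in all, of which 85 were in the files. These lists were also chosen with earlier results known. Control mice 17 and 50 were both above the other 18 mice for 38 of these 85, against 2.71% of the 19919 genes that reached 0.5 FPKM in any mouse. By list this held for 25 of 43 genes of the cornified envelope and keratinocyte differentiation, 5 of 10 stratified keratins, 5 of 17 desmosome and hemidesmosome genes and 3 of 15 transcription factors. Loricrin (Lor), the main protein of the cornified envelope, was 19.2 and 11.4 FPKM in the 2 mice and at most 0.875 FPKM in the other 3 Control mice. Filaggrin (Flg), which bundles keratin in the outermost layers, was 21.9 and 9.29 FPKM, and listed at 0 in the other 3. Krtdap, a keratinocyte differentiation protein, was 157.6 and 95.04 FPKM, and Cnfn (cornifelin) 49.8 and 35.8 FPKM. These 2 genes were at 3.54 and 1.41 FPKM in Model + PZH mouse 35, and Cnfn was listed at 0 in the other 17 mice.

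Many of the listed genes are expressed outside squamous tissue as well. In the PZH mice, where the 10 members summed to 1.18 to 2.33 FPKM, 11 of 17 desmosome and hemidesmosome genes and 10 to 13 of 43 cornified envelope and differentiation genes were at 1 FPKM or more. Among the most abundant were Perp (113 to 241 FPKM in the 20 mice), Jup (77.7 to 120 FPKM) and Dsp (50.2 to 107 FPKM), all of desmosomes, as well as Sfn (3.0 to 111 FPKM) and the transcription factor Pitx1 (3.69 to 12.3 FPKM).

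The 2 Control mice were not alike in the genes of skin appendages and muscle. Hair follicle genes, most of them hair keratins, summed to 39.9 FPKM in Control mouse 17, with 11 of 18 genes at 1 FPKM or more, while no other mouse had any of the 18 at 1 FPKM. Among them Krt71, of the inner root sheath, was 6.8 FPKM and Krt34, of the hair shaft, 5.33 FPKM in mouse 17, and both were listed at 0 in mouse 50. Of 8 sebaceous gland genes 5 were highest in mouse 17, among them Awat1 and Elovl3, of lipid synthesis, at 3.41 and 3.02 FPKM there and listed at 0 in all other mice. Far2, of the same list, was lowest in mouse 17 (0.395 FPKM, against 1.15 to 3.55 FPKM), and Fa2h and Awat2 were not highest there. Of 18 skeletal muscle genes 11 were highest in mouse 17, with the fast-fibre genes Tnnt3 at 12.3 FPKM, Tnnc2 at 10.1 FPKM and Myh1 at 2.65 FPKM, against 1.98, 1.17 and 0.0579 FPKM in mouse 50. The fast-fibre gene Tnni2 was instead highest in Model + PZH mouse 35 (3.72 FPKM, against 0.681 FPKM in mouse 17), and Actn3 in Model + PZH mouse 36 (0.553 against 0.228 FPKM). Mice 17 and 50 were both above the other 18 mice for 5 of the 18 skeletal muscle genes, among them Ckm (13.6 and 16.8 FPKM). Smooth muscle genes were highest in mouse 50 for 8 of 8, and mice 17 and 50 were both above the other 18 mice for 4 of 8. The 8 genes summed to 5299 FPKM in mouse 50, against 2300 to 2896 in the other 4 Control mice. Of the 19919 genes that reached 0.5 FPKM in any mouse, 886 were highest in mouse 17 and 1638 in mouse 50. Both mice were above the other 18 for 2.71% of these genes.

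**Figure D4:**
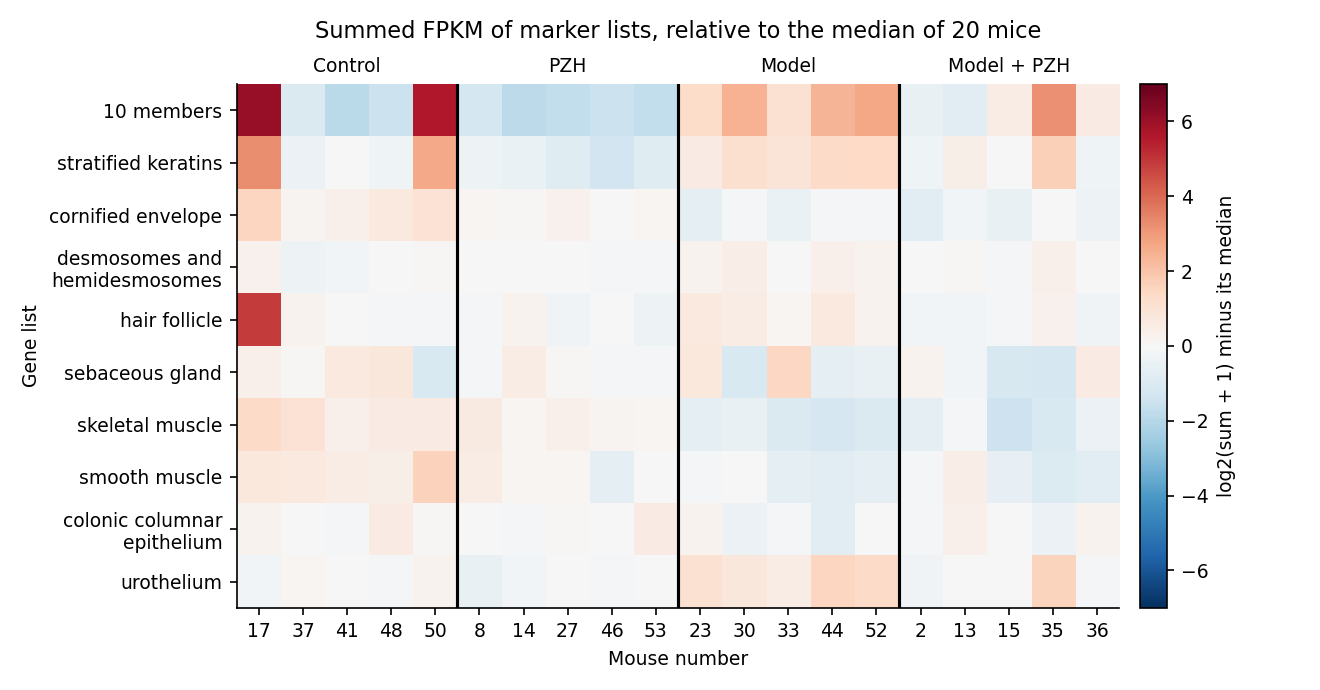
Summed FPKM of 10 marker lists (rows) in the 20 mice (columns), as log2(sum + 1) minus the median of the 20 mice. Control mice 17 and 50 stand out for the members and stratified keratins, hair follicle genes stand out in Control mouse 17 only, and smooth muscle genes are highest in Control mouse 50.

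Columnar genes of the colon were present in the same 2 libraries. Vil1 was 274 and 219 FPKM against 221 to 242 FPKM in Control mice 37, 41 and 48, and Lgals4 was 1950 and 1905 FPKM against 1160 to 1781. Car1, a carbonic anhydrase, was 1135 and 1145 FPKM against 529 to 588. Cdx2, an intestinal transcription factor, was 7.35 and 7.23 FPKM against 25.9 to 69.7. Other columnar genes were lower there as well. Muc2 was 252 and 234 FPKM against 356 to 982, and Cdx1 was 161 and 189 FPKM against 239 to 243. Krt8 was listed at 0.242 and 0.105 FPKM against 19.3 to 3071. Of the 15 columnar genes, 2 were above the other 18 mice in both libraries. Of 3 melanocyte genes, 6 of urothelium and 6 of prostate and seminal vesicle, 0 were above the other 18 mice in both. The 3 melanocyte genes summed to 0.864 to 1.65 FPKM in Control mice, and apart from Spink1, which lay between 47.5 and 519 FPKM in the 20 mice, no prostate or seminal vesicle gene reached 1 FPKM in any mouse. Of 6 Hox genes of the distal hindgut, 1 was above the other 18 mice in both, and Hoxb13 was 177 and 202 FPKM in them against 151 to 165 in the other Control mice. Which tissue gave the squamous, appendage and muscle genes in Control mouse 17 was not tested.

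No gene of the 4 squamous lists was called between PZH and Control. This was limma with Benjamini-Hochberg adjustment over all 15506 genes tested, called at an adjusted p under 0.05, on log2(FPKM + 1). Of 35 list genes tested, 0 were called and 3 had an unadjusted p under 0.05. Of all genes 1 was called, 0.00645% (0.00% higher, 0.00645% lower). With Control mice 17 and 50 left out, 0 of 34 were called and 4 had an unadjusted p under 0.05, and 0.00662% of all genes were called, all lower.

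Of 42 list genes tested in Model against Control, 11 were called higher and 1 lower, beside 16.4% of the 15812 genes tested called higher and 7.23% lower, and the median log2 fold change was 0.22 against 0.09 over all genes. By list, 4 of 12 desmosome and hemidesmosome genes, 4 of 18 cornified envelope and differentiation genes, 2 of 9 transcription factors and 1 of 3 stratified keratins were called higher, and the lower gene was of the cornified envelope list. Cornified envelope genes were not alike in level in the Model mice. Lor was at most 0.417 FPKM, Flg at most 0.00391 FPKM and Calm4 listed at 0, whereas Asprv1 was 9.16 to 28.4 FPKM, Sprr1a 11.3 to 20.7 FPKM and Casp14 3.37 to 12.1 FPKM. Itga6, the integrin chain of hemidesmosomes, was 75.6 to 111 FPKM in Model mice and 40.1 to 69.3 FPKM in Control mice (log2 fold change 0.84, SE 0.16, limma adjusted p = 0.0036). Lamb3, a chain of laminin-332, which anchors epithelium to its basement membrane, gave 0.57 (SE 0.18, adjusted p = 0.0426). Pkp1, a desmosomal plaque protein, gave 0.38 (adjusted p = 0.0461).

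The transcription factors called were Sox21 and Grhl3. Sox21 was 10.3 to 28.3 FPKM in Model mice and 1.11 to 2.05 FPKM in Control mice, a log2 fold change of 2.88 (SE 0.24, limma adjusted p = 2.42e-05). Grhl3, a regulator of epithelial barrier genes, was 1.5 to 2.8 FPKM against 0 to 0.701 (1.31, SE 0.18, adjusted p = 0.000608). Control mice 17 and 50 lay at the level of the other Control mice for Sox21, at 1.11 and 1.28 FPKM, and were the highest Control mice for Grhl3, at 0.701 and 0.499 FPKM.

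Among differentiation genes Gsdma, a gasdermin of skin, was called at 2.56 (SE 0.33, limma adjusted p = 0.000384), Asprv1, a protease that processes filaggrin, at 2.40 (SE 0.60, adjusted p = 0.0151) and Ly6d, a surface antigen, at 2.27 (SE 0.50, adjusted p = 0.00873). Asprv1 was 13.4 FPKM in Control mouse 50, inside the 9.16 to 28.4 FPKM of the Model mice, and at most 3.16 FPKM in the other Control mice. Sprr2h rose by 0.71 (limma adjusted p = 0.0477), and its family members are alike in sequence, so its reads are uncertain. Krt84, a hard keratin, rose by 1.47 (SE 0.33, adjusted p = 0.0092). The lower gene was Tgm3, a transglutaminase, at 40.8 to 98.1 FPKM in Model mice and 296 to 513 FPKM in Control mice (-2.70, SE 0.24, adjusted p = 3.52e-05). Its level in Control mice 37, 41 and 48 was 382 to 513 FPKM. The calls of Lamb3 and Pkp1 were lost with any 1 of Control mice 37, 41, 48 and 50 or Model mice 23, 30, 44 and 52 left out, and that of Sprr2h with any 1 of these Control mice left out. All 3 calls were also lost with no filter on low values and with median of ratios scaling.

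With Control mice 17 and 50 left out, a choice made after seeing the data and by the levels of squamous genes, 13 of 38 list genes were called higher and 2 lower, beside 12.2% and 5.58% of the 15381 genes then tested. Leaving out the Control mice with the highest squamous genes lowers Control for such genes by construction, so these calls are no evidence of a difference and their p-values are not given. The log2 fold change went from 0.65 to 1.3 for Tgm1, from 0.65 to 1.13 for Ppl, from 0.28 to 1.60 for Sprr1a and from -0.20 to 0.47 for Krt80. Tgm1 crosslinks the cornified envelope, Ppl (periplakin) links it to keratin, and Sprr1a is one of its small proline-rich proteins. In Model against PZH no mouse was left out, but the groups differ in both AOM/DSS and PZH. There Ppl (1.01, limma adjusted p = 0.000355) and Sprr1a (1.66, adjusted p = 0.000411) were called higher. Tgm1, at 1.23 to 2.92 FPKM in Model mice and at most 0.305 FPKM in PZH mice, passed the filter only through the Model mice. Its call there is therefore no evidence of a difference, and its p-value is not given. Krt80 (0.36, limma adjusted p = 0.0671) was not called. Without Control mice 17 and 50 Pkp1 was no longer called, and Sprr2h did not pass the filter on low values.

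**Figure D5:**
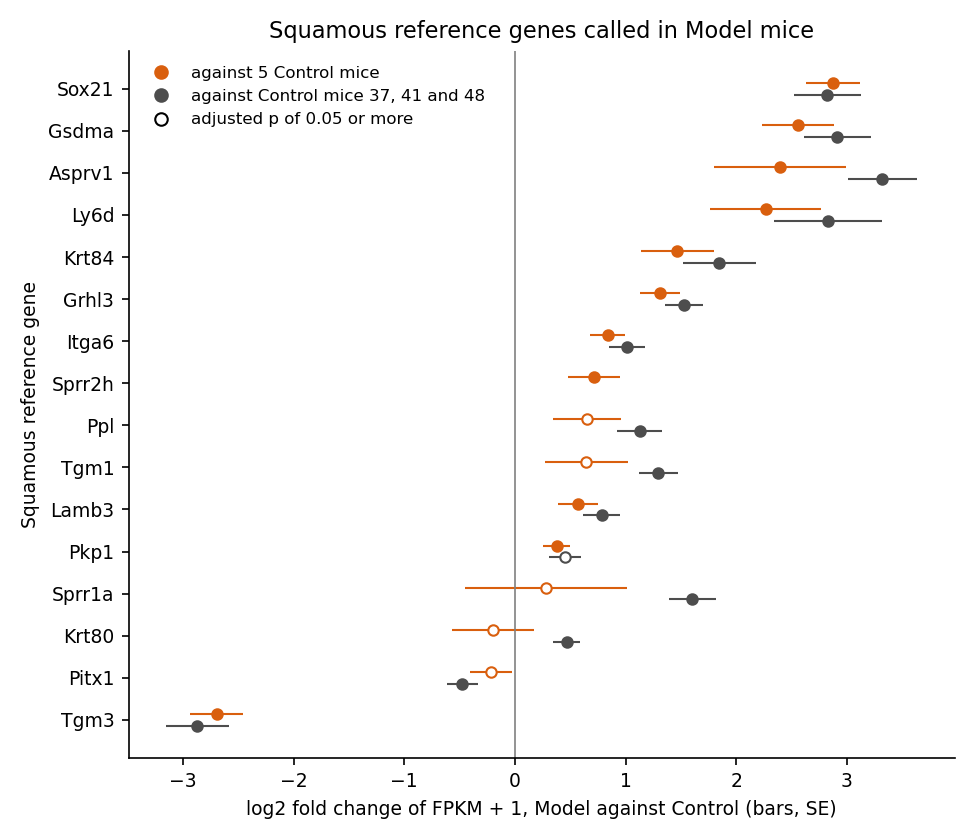
Log2 fold change of FPKM + 1 in Model against Control for the reported squamous list genes called with all 5 Control mice (orange) or with Control mice 37, 41 and 48 (grey), with bars of 1 SE and open points where the adjusted p was 0.05 or more. Sox21, Gsdma, Asprv1 and Ly6d are high and Tgm3 is low in both. Tgm1, Ppl, Sprr1a and Krt80 (called higher) and 1 transcription factor (called lower) are filled only in grey. The grey points leave out the 2 Control mice with the highest squamous genes.

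Model against PZH, a comparison added after seeing the data because both groups lack mice 17 and 50, called 15 of 39 list genes higher and 2 lower, beside 18.7% and 8.83% of the 15871 genes tested. Ly6d gave the largest rise among these 15 (3.39, SE 0.41, limma adjusted p = 0.000252), from 3.9 to 17.7 FPKM in PZH mice to 60.8 to 186 FPKM in Model mice. Krt17, a keratin of appendages and injured epithelium, rose by 1.73 (SE 0.28, adjusted p = 0.00125). Tgm3 and Ovol1 were lower. The 15 include Tgm1, which passed the filter on low values only through the Model mice. Model against Control and Model against PZH share the Model mice. Model and PZH mice differ in both AOM/DSS and PZH, so the effects of these 2 treatments cannot be told apart in Model against PZH.

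Smooth muscle and columnar genes moved in the same comparison. Of the 8 smooth muscle genes 7 were called lower in Model than in Control (median log2 fold change -1.18), beside 7.23% of all genes tested. Without Control mice 17 and 50, which removes the mouse with the highest smooth muscle genes, 4 of 8 were called lower, beside 5.58%. In Model against PZH 3 of 8 were called lower, beside 8.83%. Of 14 columnar genes tested in Model against Control 6 were called lower and 0 higher, beside 7.23% and 16.4% of all genes tested. Slc26a3, a chloride exchanger, was at -2.39 (limma adjusted p = 0.000231). Krt7, a simple-epithelium keratin also found in urothelium, was 62.1 to 122 FPKM in Model mice and 35.9 to 45.5 FPKM in Control mice (1.14, adjusted p = 0.000874). Upk3a, of the urothelium list, was 0.94 to 5.08 FPKM in Model mice and listed at 0 in all Control and PZH mice. It was 3.38 FPKM in Model + PZH mouse 35. Upk3a passed the filter on low values only through the Model mice, so no call is given for it. The part of the smooth muscle, columnar and urothelium genes in the squamous gene differences was not tested.

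Between Model + PZH and Model, 0 of 43 list genes tested were called by limma and 11 had an unadjusted p under 0.05. Over all 15888 genes 1 was called, which is 0.00629% (higher) with 0.00% lower. Model + PZH mouse 35 carried levels like those of the Model mice in many of these genes, with Sox21 at 21.9 FPKM, Gsdma at 13.5 FPKM, Asprv1 at 15.2 FPKM and Krt7 at 129 FPKM, against at most 4.83, 2.53, 2.28 and 44.1 FPKM in the other 4 mice of its group. Without mouse 35, 10 of 42 list genes were called lower and 0 higher, beside 4.41% and 0.761% of the 15639 genes tested. Mouse 35 was singled out by its high values of such genes, so leaving it out lowers its group by construction. The count shows how far the comparison turns on 1 mouse and is no evidence of a difference.

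Between Model + PZH and PZH, 2 of 37 list genes were called higher and 0 lower, beside 1.74% and 0.678% of the 15636 genes tested. They were Krt84 (1.25, SE 0.27, limma adjusted p = 0.0447) and Sprr1a (1.68, SE 0.38, adjusted p = 0.0488), with Sprr1a at 9.52 to 43.1 FPKM in Model + PZH mice and 2.24 to 5.38 FPKM in PZH mice. With any 1 of the 5 PZH mice left out, or Model + PZH mouse 2, 0 were called, and with median of ratios scaling Sprr1a was not called. The difference between the effect of PZH in AOM/DSS mice and in mice without AOM/DSS was tested directly over all 20 mice. Of 44 list genes 0 were called by limma, 7 had an unadjusted p under 0.05, and the smallest adjusted p was 0.382.

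The genes most like the members were sought among 16004 others that reached 1 FPKM in at least 2 mice, by Pearson's r over the 20 mice between log2(FPKM + 1) and the members' mean. The 10 highest were Lgals7 (r = 0.976), Tmprss11g (0.975), Cysrt1 (0.962), Aqp3 (0.953), Lypd3 (0.947), Krt6b (0.946), Lipk (0.942), Klk10 (0.94), Psca (0.939) and Sprr2d (0.939), and 36 genes had an r of 0.9 or more. Lgals7, a galectin of stratified epithelium, was 143 and 60.3 FPKM in Control mice 17 and 50 and at most 2.35 FPKM in the others. Psca was 31.1 and 30.5 FPKM there and at most 1.17 FPKM elsewhere. The 20 mice are not 1 cloud, and these values rest on Control mice 17 and 50: over the other 18 mice r of the same 10 genes was 0.659 to 0.907. By Spearman's rho the 10 highest shared 1 gene, Krt6b, with these, and were led by Anxa1 (rho = 0.959), which was 298 and 248 FPKM in the 2 mice and up to 258 FPKM in the others.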

How the data were processed

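RNA-seq was done on colon of 20 mice. As the study's methods state, the authors filtered reads with NGSQC, aligned them to mm10 with HISAT2 and quantified known and assembled transcripts with StringTie, and the deposited values are FPKM per transcript, with no counts. The labels name rRNA depletion, and limma among the processing tools. Each file lists 118434 transcripts, of which 22252 are assembled and were not used. GENCODE M21 assigned 96032 of 96182 Ensembl transcripts to 32991 genes, and FPKM was summed per gene.

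Each pair of groups was fitted with limma 3.58.1 in R 4.3.3 (variance trend) on log2(FPKM + 1), with genes at 0.5 FPKM or more in at least 5 of the 10 mice. Fold changes are on that scale, which understates low genes, and p-values were adjusted by Benjamini-Hochberg over all genes tested. The fit was tested on simulated data. Depth was estimated from the step of FPKM times length in genes with 1 transcript, where 40.5% to 50.0% of low values lay within 0.05 of a whole step. Fragments are FPKM times length over that step and cover counting error only.

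Members and lists were chosen with earlier results of these data known. Named list genes are those called with the largest fold change, up to 5 in each direction per list, and the 3 most abundant of a list, besides the members and the 10 genes most like them. Further genes named by value (Lor, Flg, Calm4, Casp14, Krtdap, Cnfn, Vil1, Cdx2, Epcam, Krt8, hair, sebaceous and muscle genes) were chosen after their values were seen. Upk3a was chosen in the same way. Krt2, Krt24, Krt85, Tyrp1 and Tyr were not analysed here, and some list genes that the rule names are not reported here. Alternatives were a pseudocount of 0.1, no filter, median of ratios scaling, all 20 mice in 1 model, sample quality weights and leaving out each mouse. Leaving out both Control mice 17 and 50 was added after seeing the data.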

Additional observations from a re-analysis of the deposited data

Results flagged for a closer look

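Gaps inside a group of 5 mice were examined for each member that reached 0.5 FPKM in at least 1 mouse of the group, on log2(FPKM + 1). In 2 of 28 such sets the distance of a mouse to its nearest neighbour took up more than 0.71 of the group's range, which is Dixon's 95% critical value for 5 samples. This is a screen and not a test here, since the members were chosen to look for libraries that stand apart, and without such a choice about 1 in 20 groups is picked out by chance. Krt5 in Model + PZH mouse 35 was 3.21 FPKM with the next mouse at 0.104 FPKM, a gap of 0.949 of the range, and the set reached 0.5 FPKM only through this mouse. Krt15 in the same mouse was 3.89 FPKM with the next at 0.814 FPKM, a gap of 0.718 of the range. Control mice 17 and 50 are not picked out this way, since each is the other's neighbour.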

How the results depend on the processing

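No paired analysis was possible because no mouse number is shared between groups. The count of listed squamous genes called in PZH against Control was 0 under each alternative and each of 10 left-out mice. In Model against Control it was 12, and 10 to 13 under the alternatives with all mice, with 9 to 14 when each mouse was left out. Without both Control mice 17 and 50 it was 15, and 17 with no filter as well. These 2 counts are no check, since leaving out these mice lowers Control for squamous genes by construction. In Model + PZH against Model it was 0 under all alternatives, and 0 to 10 over the left-out mice, the 10 coming without Model + PZH mouse 35. In Model + PZH against PZH it was 2, and 0 with no filter, 1 with median of ratios scaling, 5 with all 20 mice in 1 model and 0 to 3 over the left-out mice, and the cause was not tested. In Model against PZH it was 17, and 15 to 22 under the alternatives and 13 to 18 over the left-out mice.

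No called list gene changed direction. Lamb3, Pkp1 and Sprr2h in Model against Control, and Krt84 and Sprr1a in Model + PZH against PZH, lost their call with no filter and with several left-out mice, as did Ovol1 and Serpinb5 in Model against PZH, where Dmkn and Sprr1a lost it with all 20 mice in 1 model. Median of ratios scaling also ended the calls of Lamb3, Pkp1 and Sprr2h in Model against Control, Sprr1a in Model + PZH against PZH and Serpinb5 in Model against PZH. All 20 mice in 1 model ended that of Sprr2h in Model against Control and that of Sprr1a in Model + PZH against PZH. Median of ratios scaling took the genes called higher in Model against Control from 69.4% to 55.0% of all calls and the median log2 fold change of all genes from 0.09 to 0.01. Of 620 member differences recomputed, 41 moved by more than 1 SD of the mice, 27 with the pseudocount of 0.1 and 14 without Control mice 17 and 50.

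Exact 0 values can be failed estimates, reads shared by Krt6a and Krt6b cannot be placed, and replicates are single mice of 1 study.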
